A study of Mus musculus with 241 samples.

Results

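Thymic precursors that had taken up the surface receptor CD25 but not yet the reporter of the commitment factor Bcl11b were compared with the precursors just before them. Bcl11b- DN2a cells were sorted as Lin- 7AAD- CD44+ Kit+ CD25+ YFP- cells (3 libraries), and total ETP cells as Lin- 7AAD- CD44+ Kit+ CD25- cells (2 libraries). All 5 samples came from thymus of C57BL/6 mice whose genotype is given as Bcl11byfp/yfp, so both populations carry the yellow reporter in the Bcl11b gene, and no treatment, age or number of mice is given in the labels. These 5 libraries were taken by their labels out of 12 bulk libraries of 5 sorted populations, in a series of 241 samples that also holds single cells. Libraries 1 and 2 of both populations were made from total RNA with the NEBNext Ultra kit, and Bcl11b- DN2a 3 was made from polyA RNA with SMART-Seq v4 and Nextera XT. The labels do not say whether the libraries of a population came from separate mice, and the p-values below rest on library-to-library spread that may be technical.

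Early T-cell progenitors (ETPs) are the most immature cells of the thymic T lineage and still can give rise to myeloid, dendritic and innate lymphoid cells. Notch ligands and Kit ligand on thymic stroma carry them into the DN2a stage, at which the gene Il2ra, which encodes CD25, comes on. Bcl11b, a zinc finger repressor, comes on later and closes the other lineages. CD25+ cells negative for the Bcl11b reporter are therefore taken as past entry into the T programme and before commitment. The comparison shows which transcripts differ across that entry.

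Values are FPKM, the reads on the exons of a gene per kilobase, scaled to the depth of the library. The 5 libraries held 21157400 to 33401705 reads on gene models. A linear model (limma, on log2(FPKM + 1), with the kit as a term and all 12 bulk libraries sharing the estimate of the spread) tested 12112 genes, and calls were made where the p-value, adjusted by Benjamini-Hochberg, was under 0.05. Differences below are log2, Bcl11b- DN2a minus total ETP, with their standard error. In all, 1895 genes were called (15.6% of those tested), 1184 higher (9.78%) and 711 lower (5.87%) in Bcl11b- DN2a. The median difference over all genes tested was -0.003. The share called in a gene list below is to be read against the 15.6% of all genes tested.

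The libraries are uneven in a way that touches these counts. The library numbers fall into 3 series: Bcl11b- DN2a 1 is in the first, together with an Flt3+ and an Flt3- ETP library, Bcl11b- DN2a 3 is among the SMART-Seq libraries, and Bcl11b- DN2a 2 is in the series of both total ETP libraries. Bcl11b- DN2a 1 lay farther from the total ETP mean than Bcl11b- DN2a 2 in 93.4% of the rises and 82.7% of the falls, against 79.2% of all genes tested. The Flt3+ and Flt3- ETP libraries of the first series, which are CD25-, were also both above the total ETP libraries for 84.7% of the rises (30.1% of all genes tested) and both below them for 64.4% of the falls (39.3%). Bcl11b- DN2a 1 also held Col1a1, a fibroblast collagen, at 8 FPKM, compared with 0.014 and 0 FPKM in Bcl11b- DN2a 2 and 3 and with 0.011 and 0 FPKM in total ETP, and the first-series ETP libraries held it at 18.2 FPKM (Flt3+) and 15.9 FPKM (Flt3-). Without Bcl11b- DN2a 1, 376 genes were called, 374 of them among the 1895, whereas without the whole first series, an alternative added after seeing the data, 1595 were called (13.2%), 1250 of them among the 1895. The part of the series in these differences was not tested.

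**Figure D1:**
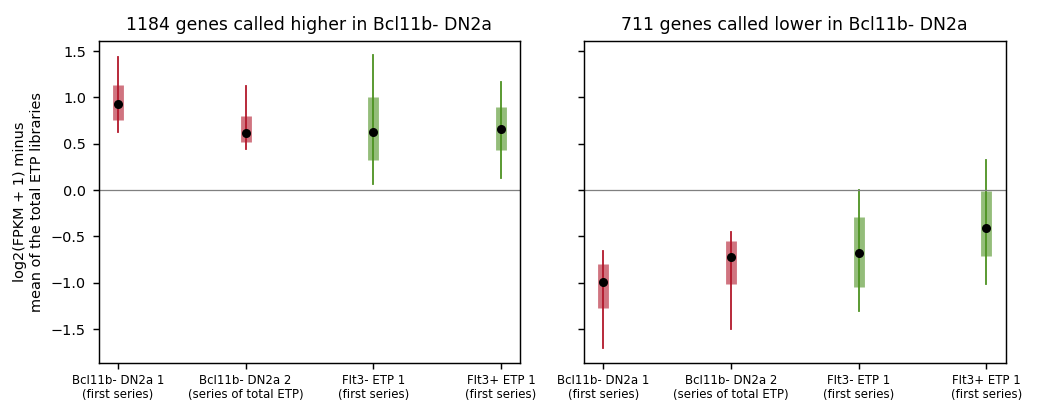
Difference from the mean of the total ETP libraries, in log2(FPKM + 1), of the genes called higher (left panel) and lower (right panel) in Bcl11b- DN2a; dots are medians over genes, thick bars the middle quartiles and thin bars the range from the 10th to the 90th percentile. Bcl11b- DN2a 1 sits farther out (medians 0.92 and -0.99) than Bcl11b- DN2a 2 (0.61 and -0.72), and the first-series ETP libraries sit on the same side.

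The share of genes called was 3.1%, 23.9% and 6.65% without Bcl11b- DN2a 1, 2 and 3, and 3.29% and 1.68% without total ETP 1 and 2. Of the calls, 6.25% of the rises and 14.5% of the falls were made in the same direction in each of these 5 fits. The 1521 calls lost without Bcl11b- DN2a 1 kept their sign there, with a median of 89.3% of their difference, and 58.1% of them were called without the whole first series. Bcl11b- DN2a 2 lay beyond both total ETP libraries for all 1184 rises and all 711 falls. The kept sign is therefore no separate support. The fit without the first series keeps Bcl11b- DN2a 2 as the only NEBNext library of that population, so a call in it does not restore one lost elsewhere. Why calls were lost in the smaller fits was not tested. A gene named below as called was called in all 5 fits unless the text says without which libraries it was not. In a fit of the series of total ETP alone, no gene was called by limma. Bcl11b- DN2a has a single library there, so the spread came from the total ETP libraries and not from Bcl11b- DN2a. In bulk RNA, fewer cells of a type and less RNA per cell cannot be told apart, and this holds for each difference below.

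The sort gene Il2ra, whose difference describes the gate, had 253, 220.7 and 183.6 FPKM in Bcl11b- DN2a 1, 2 and 3, against 7.07 and 10.6 FPKM in total ETP 1 and 2 (log2 difference 4.92 ± 0.51, adjusted p = 0.000369). Flt3, the receptor of multipotent progenitors that was not used to sort either population, had 1.12, 2.73 and 0.735 FPKM in Bcl11b- DN2a, against 58.01 and 47.3 FPKM in total ETP (-4.44 ± 0.28, adjusted p = 1.9e-05). Kit did not differ by the test (-0.02, 95% interval -0.53 to 0.49), and both populations were gated on it. Cd44, also part of the gate of both, had 15.7, 18.7 and 9.61 FPKM in Bcl11b- DN2a, against 41.3 and 46.7 FPKM in total ETP (-1.43 ± 0.19, adjusted p = 0.00105). Bcl11b had 6.11, 3.08 and 0.596 FPKM in the reporter-negative DN2a cells, against 0.105 and 0.167 FPKM in total ETP (2.32 ± 0.31, adjusted p = 0.00115). Its transcript was thus not absent from cells sorted as negative for the reporter. The first-series ETP libraries held it at 5.76 FPKM (Flt3+) and 4.54 FPKM (Flt3-), close to Bcl11b- DN2a 1 of the same series.

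Besides Il2ra, the largest rise was in Fgf3, a secreted fibroblast growth factor. Fgf3 (chr7:144838612-144843348 on mm10, plus strand) had 75.2, 59.7 and 47.8 FPKM in Bcl11b- DN2a, against 2.44 and 0.965 FPKM in total ETP (4.73 ± 0.26, adjusted p = 9.79e-06), and the first-series ETP libraries had 1.10 and 3.39 FPKM. The groups lay far apart, and the higher of these ETP values, 3.39 FPKM, lay far nearer to total ETP than to Bcl11b- DN2a. Ly6d, a GPI-linked surface protein known from lymphoid progenitors, had 106.7, 62.1 and 182.7 FPKM in Bcl11b- DN2a, against 14.9 and 7.82 FPKM in total ETP (2.898 ± 0.34, adjusted p = 0.000603). Its first-series ETP values, 41.99 and 41.9 FPKM, lay between the groups. Itga2b, the integrin αIIb chain of megakaryocytes and early progenitors, had 24.02, 18.6 and 4.20 FPKM in Bcl11b- DN2a, against 2.66 and 2.69 FPKM in total ETP (2.32 ± 0.30, adjusted p = 0.000953). Its lowest value was in the SMART-Seq library and still lay above both total ETP libraries.

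The other large rises among genes with a mean log2 level of at least 3 came from varied classes. Aldh1b1, a mitochondrial aldehyde dehydrogenase, had 52.4, 30.6 and 36.3 FPKM in Bcl11b- DN2a, against 9.58 and 7.40 FPKM in total ETP (2.13 ± 0.25). Cebpb, a bZIP factor best known from myeloid cells, had 13.8, 11.3 and 57.5 FPKM, against 2.88 and 2.76 FPKM in total ETP (2.03 ± 0.31). Anxa2, a calcium-dependent membrane-binding protein (1.98 ± 0.30), Timp2, a metalloproteinase inhibitor (1.93 ± 0.27), and Sytl3, a synaptotagmin-like protein of vesicle traffic (1.87 ± 0.19), also rose, with adjusted p of 0.000318 to 0.00246. Of these, Cebpb reached 16.6 FPKM in the first-series Flt3- ETP library, above Bcl11b- DN2a 1 and 2. The 15 largest rises also hold 4 β-globin genes and 2 histone genes.

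Among genes with a mean log2 level of at least 3, the 15 largest falls began with Flt3. Adgrl4, an adhesion G protein-coupled receptor first known from endothelium, had 2.21, 4.79 and 5.66 FPKM in Bcl11b- DN2a, against 26.8 and 29.6 FPKM in total ETP (-2.93 ± 0.32, adjusted p = 0.000481). Ctss, the cathepsin that trims invariant chain in antigen-presenting cells, had 3.89, 2.28 and 2.73 FPKM in Bcl11b- DN2a, against 24.5 and 21.1 FPKM in total ETP (-2.73 ± 0.31, adjusted p = 0.000561). The first-series ETP libraries held Ctss at 31.99 and 21.9 FPKM, with total ETP and apart from all 3 Bcl11b- DN2a libraries. Anxa1, a calcium-dependent membrane-binding protein like Anxa2 (4.49, 4.40 and 18.8 FPKM, against 28.5 and 27.7 FPKM in total ETP) fell by 2.42 on the log2 scale (SE 0.14). Emp1, an epithelial membrane protein gene (-2.26 ± 0.16), Rgs1, an inhibitor of G protein signalling (-2.31 ± 0.26), and Kctd12, which modulates GABA-B receptors in neurons (-1.93 ± 0.24), fell in like manner. Cd34, the sialomucin of stem and progenitor cells, had 56.2, 79.7 and 74.7 FPKM in Bcl11b- DN2a, against 239 and 231 FPKM in total ETP (-1.90 ± 0.19). Gem, a small GTPase (-2.40 ± 0.41, adjusted p = 0.00494), was not called without total ETP 2 (adjusted p = 0.0574), with a difference of -2.41 there.

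**Figure D2:**
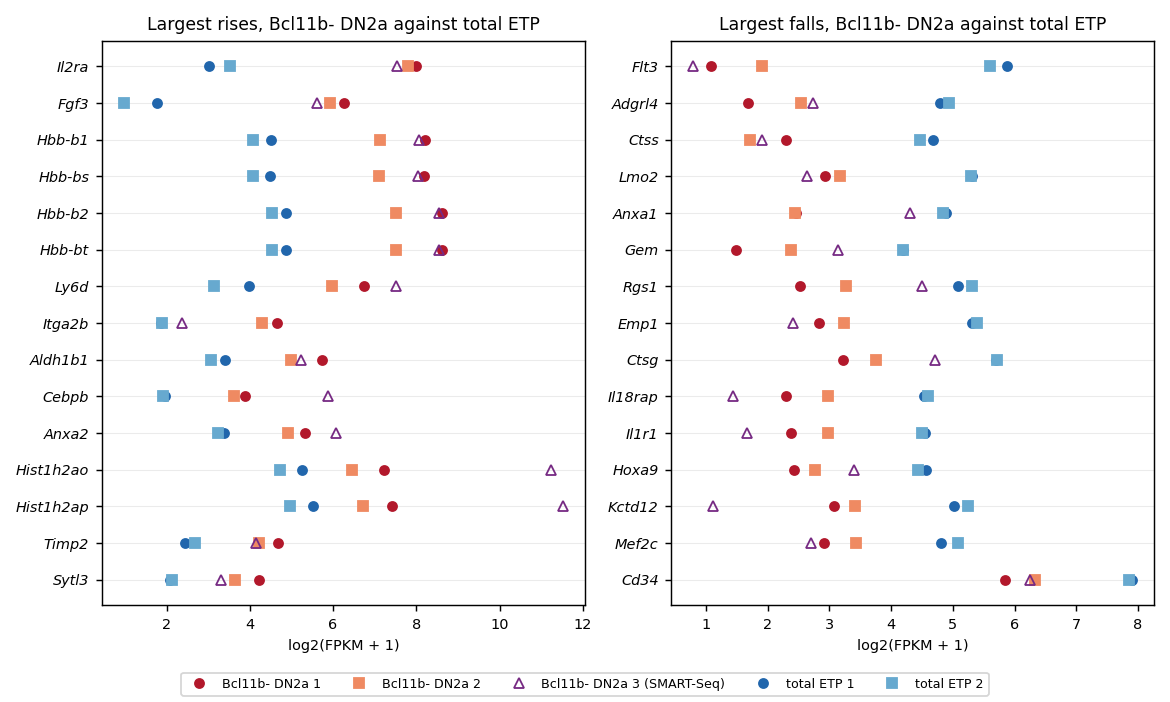
Level of the 15 largest rises (left) and the 15 largest falls (right) among called genes with a mean log2 level of at least 3, as log2(FPKM + 1) in each library; red, orange and purple symbols are Bcl11b- DN2a and blue symbols total ETP. All 3 Bcl11b- DN2a libraries lie on the same side of both total ETP libraries for each gene, a condition of the choice, and Fgf3 and Flt3 show the widest gaps besides Il2ra.

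Notch signalling gives entry into DN2a its direction. Its listed targets gave 4 rises and no fall in 12 tested (33.3% called, against 15.6% of all genes tested, median difference 0.54). The sort gene Il2ra was among the rises, and besides it only Tcf7 held in every fit that left out a library. Tcf7, which encodes the HMG-box factor TCF-1 and starts the T programme, had 303, 309 and 142.5 FPKM in Bcl11b- DN2a, against 109.7 and 122.5 FPKM in total ETP (1.39 ± 0.11, adjusted p = 6.99e-05). The first-series ETP libraries had 68.5 FPKM (Flt3+) and 128.7 FPKM (Flt3-), both far below Bcl11b- DN2a 1 of the same series. Gata3, the zinc finger factor of T and type 2 lymphoid cells, had 14.7, 11.7 and 11.5 FPKM, against 6.31 and 6.33 FPKM in total ETP (0.94 ± 0.22, adjusted p = 0.0204), which was not called when Bcl11b- DN2a 1 alone or either total ETP library was left out (adjusted p up to 0.177, differences 0.83 to 0.94) but was called without the whole first series (0.89, adjusted p = 0.029). Dtx1, a Notch-induced E3 ligase, rose (1.70 ± 0.33, adjusted p = 0.00914), was not called when the same libraries were left out (up to 0.112, differences 1.46 to 1.77) and was called without the whole first series (1.16, adjusted p = 0.0185). Hes1 did not pass (0.23, 95% interval -0.08 to 0.54), and neither did Nrarp, Hes5, Ptcra or Myc. Of 14 receptors and mediators 2 rose and 1 fell (21.4% called, against 15.6% of all genes tested, median -0.01). Rfng, which modifies Notch receptors with sugars (0.77, adjusted p = 0.043), rose and Adam17, a protease that cleaves them (-0.65, adjusted p = 0.043), fell. Neither was called without Bcl11b- DN2a 1 or 3 or either total ETP library (up to 0.256 and 0.284). Nor was either called without the whole first series (differences 0.45 and -0.45). Notch3 rose, with 8.11, 3.10 and 0.197 FPKM in Bcl11b- DN2a, against 0.628 and 0.465 FPKM in total ETP (2.04 ± 0.32). The SMART-Seq library had less Notch3 than total ETP before the kit term, and the first-series ETP libraries had 6.76 and 4.44 FPKM. Notch1 had 81.2, 77.3 and 8.86 FPKM in Bcl11b- DN2a, against 57.01 and 51.1 FPKM in total ETP, and did not pass.

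Of 20 tested T-lineage regulators 5 rose and none fell (25% called, against 15.6% of all genes tested, median 0.25). The rises were Bcl11b, Tcf7, Zfpm1, Tcf3 and Gata3. Zfpm1 encodes FOG1, a partner of GATA factors, and had 13.9, 12.9 and 2.82 FPKM in Bcl11b- DN2a, against 3.94 and 3.32 FPKM in total ETP (1.54 ± 0.24, adjusted p = 0.00258). Its raw SMART-Seq value lay below total ETP, and without the kit term the limma fit gave 1.00 (adjusted p = 0.763). Tcf3, which encodes the E proteins E12 and E47, rose by 1.02 ± 0.19 (adjusted p = 0.00697, but 0.108 without total ETP 2). Lef1 (0.58), Ets1 (0.21), Runx1 (0.25), Runx3 (0.33), Gfi1 (-0.02) and Myb (0.09) did not pass.

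Regulators of stem and progenitor cells divided, with 5 rises and 10 falls in 23 tested (65.2% called, median -0.39). Of these, 2 rises and 5 falls held in every fit that left out a library. Lmo2, a LIM-domain bridging protein, had 6.61, 7.97 and 5.21 FPKM in Bcl11b- DN2a, against 38.5 and 38.2 FPKM in total ETP (-2.48 ± 0.26, adjusted p = 0.000373). The homeobox gene Hoxa9 had 4.36, 5.78 and 9.53 FPKM, against 22.6 and 20.5 FPKM in total ETP (-1.95 ± 0.18). Meis1, its usual cofactor, fell by 1.69 ± 0.23. Mef2c, a MADS-box factor of lymphoid progenitors, fell by 1.93 ± 0.26 and Gata2, a stem and mast cell factor, by 1.40 ± 0.22. All 3 Bcl11b- DN2a libraries lay below both total ETP libraries for each of these 5 genes, as for 532 of the 711 falls. Of all 12112 genes tested, 5017 lay apart without overlap in the direction of the fit. Lyl1, whose protein forms complexes with Lmo2, went the other way, with 76.4, 72.9 and 22.1 FPKM in Bcl11b- DN2a, against 47.3 and 36.8 FPKM in total ETP (0.82 ± 0.16, adjusted p = 0.00977). It was not called without Bcl11b- DN2a 1 or total ETP 2 (up to 0.165), and the raw SMART-Seq value is the lowest of the 5. Gfi1b, a repressor of erythroid and megakaryocytic cells, rose by 1.36 ± 0.21. Within the C/EBP family Cebpb rose while Cebpa, at 0.257, 0.159 and 0 FPKM in Bcl11b- DN2a and 3.73 and 3.13 FPKM in total ETP, fell by 1.75 ± 0.30 (adjusted p = 0.00505, but 0.0507 without total ETP 1). Spi1, which encodes PU.1, had 62.4, 50.8 and 51.97 FPKM in Bcl11b- DN2a, against 39.1 and 30.7 FPKM in total ETP, and did not pass (0.67, 95% interval 0.16 to 1.18, adjusted p = 0.0701).

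**Figure D3:**
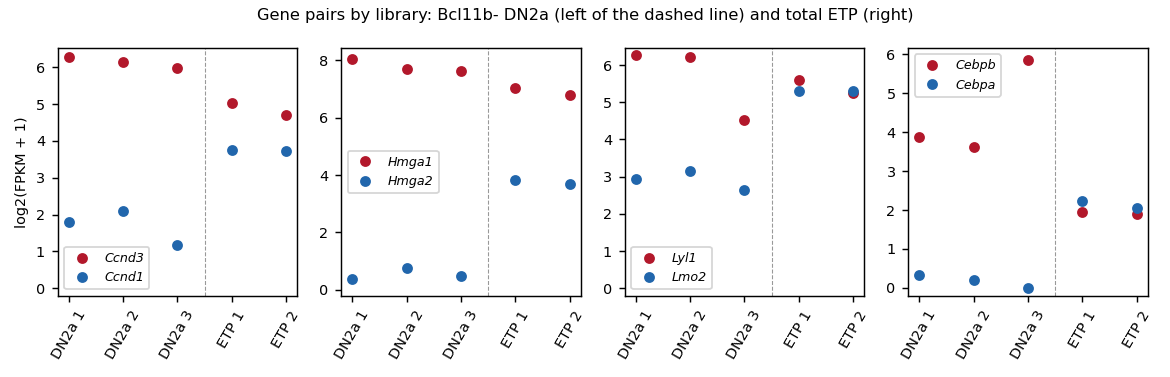
Levels of 4 gene pairs as log2(FPKM + 1) in Bcl11b- DN2a 1, 2 and 3 (left of the dashed line) and total ETP 1 and 2 (right); Bcl11b- DN2a 3 is the SMART-Seq library. Ccnd1, Hmga2, Lmo2 and Cebpa (blue) are lower in all 3 Bcl11b- DN2a libraries, while Ccnd3, Hmga1 and Cebpb (red) are higher in all 3 and Lyl1 in the NEBNext libraries.

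Of 33 tested receptors of cytokines and growth factors 13 fell, 4 rose and 16 did not pass (51.5% called, median -0.40). Of these calls, 8 falls and 1 rise held in every fit that left out a library. Ifngr2, the signalling chain of the interferon-γ receptor, had 1.32, 1.71 and 1.38 FPKM in Bcl11b- DN2a, against 8.83 and 8.63 FPKM in total ETP (-2.13 ± 0.25, adjusted p = 0.000613). Il18rap, a chain of the IL-18 receptor, fell by 2.04 ± 0.21, and its partner Il18r1 by 1.32 ± 0.18. Il1r1, the IL-1 receptor, fell by 2.01 ± 0.29, Il6st, which encodes the shared gp130 chain, by 1.46 ± 0.16, and Csf1r, the macrophage growth factor receptor, by 1.99 ± 0.28. The rise that held was in Il17rb, a receptor of IL-25, with 35.1, 32.8 and 14.04 FPKM in Bcl11b- DN2a, against 12.3 and 13.9 FPKM in total ETP (1.39 ± 0.17, adjusted p = 0.000685). Il7r, the receptor on which thymocyte survival depends, had 20.3, 21.5 and 17.8 FPKM, against 9.28 and 7.42 FPKM in total ETP (1.15 ± 0.22, adjusted p = 0.00799), and was not called without total ETP 2 (0.129). Il2rg, the common chain that pairs with CD25 and Il7r, did not pass (-0.14, 95% interval -0.42 to 0.14), and Il2rb was at or below 0.781 FPKM in all 5 libraries.

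Genes of the STAT5 pathway, which the IL-7 and IL-2 receptors drive, gave 9 rises and no fall in 14 tested (64.3% called, median 0.65). None of the 9 held in every fit that left out a library, and 2 kept the call without Bcl11b- DN2a 1. Stat5a had 50.3, 45.9 and 13.6 FPKM in Bcl11b- DN2a, against 24.2 and 21.9 FPKM in total ETP (0.99 ± 0.15, adjusted p = 0.00278, but 0.0565 without total ETP 2). Pim1, a kinase gene that STAT5 induces, had 134.7, 102.7 and 31.2 FPKM, against 53.2 and 45.2 FPKM in total ETP (1.27 ± 0.20, adjusted p = 0.00342, but 0.0635 without total ETP 2). In both genes the NEBNext libraries of the 2 populations did not overlap, while the raw SMART-Seq value lay below total ETP. Cish, a feedback inhibitor of the receptor, had 6.99, 5.11 and 5.97 FPKM, against 3.15 and 2.88 FPKM in total ETP (0.86 ± 0.19, adjusted p = 0.016), and Socs1 rose by 1.64 ± 0.39 (adjusted p = 0.0212). Neither was called without Bcl11b- DN2a 1 or either total ETP library (up to 0.178 and 0.227), nor was Socs1 without Bcl11b- DN2a 3. The Cish promoter is shown because it holds the STAT motif TTCNNNGAA, whose reverse complement is itself, at 2 places, in capitals with a TCF motif (CTTTGA, here as TCAAAG). The window is chr9:107296409-107296708 on GRCm38.p6, plus strand, from the RefSeq promoter table.
Cish: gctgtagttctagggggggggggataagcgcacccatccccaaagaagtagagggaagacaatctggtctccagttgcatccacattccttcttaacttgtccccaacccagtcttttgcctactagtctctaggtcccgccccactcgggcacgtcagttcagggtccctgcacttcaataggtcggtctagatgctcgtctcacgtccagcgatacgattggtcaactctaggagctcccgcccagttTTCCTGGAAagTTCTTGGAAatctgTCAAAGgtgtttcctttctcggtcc
Of the 9 genes that rose, 8 had a promoter in the table, and 2 of these windows (25%) held TTCNNNGAA, against 8.3% of all 32851 promoters of the same length. The TCF motif was in 12.5% of these windows, against 16% of all promoters. A match describes the letters and does not show a bound site.

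Among secreted factors, 6 rose and 2 fell in 23 tested (34.8% called, median 0.53). Of these, Fgf3 and Il12a held in every fit that left out a library. Il12a, the p35 chain of IL-12 and IL-35, had 1.12, 1.83 and 5.80 FPKM in Bcl11b- DN2a, against 14.6 and 12.6 FPKM in total ETP (-2.61 ± 0.30, adjusted p = 0.000561). Il15 (-0.95 ± 0.19, adjusted p = 0.0112) and the angiogenic factor Vegfa (1.21 ± 0.25, adjusted p = 0.0116) were not called when Bcl11b- DN2a 1 alone or either total ETP library was left out (up to 0.14 and 0.133), and Il15 was called without the whole first series (-0.75, adjusted p = 0.0354).

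Of 9 tested genes of FGF signalling and its ERK feedback, 2 rose and 3 fell (55.6% called, median -0.31). The rises were Fgf3 and the ERK phosphatase gene Dusp5, and the falls were Etv5, Dusp6 and the ERK inhibitor gene Spred1. Spred1 (-0.94, adjusted p = 0.0334) was not called without Bcl11b- DN2a 1 or 3 or either total ETP library (up to 0.267). Etv5, an Ets factor that ERK signalling induces, had 1.21, 0.441 and 0.249 FPKM in Bcl11b- DN2a, against 6.17 and 6.22 FPKM in total ETP (-1.96 ± 0.22, adjusted p = 0.000479). Dusp6, the cytoplasmic ERK phosphatase, had 4.49, 6.61 and 7.63 FPKM, against 20.7 and 17.4 FPKM in total ETP (-1.71 ± 0.24, adjusted p = 0.0017). The first-series ETP libraries held Dusp6 at 21.8 FPKM (Flt3+) and 10.6 FPKM (Flt3-), above Bcl11b- DN2a 1 of the same series. Dusp5 had 31.7, 32.2 and 21.8 FPKM, against 15.6 and 14.7 FPKM in total ETP (0.98 ± 0.16, adjusted p = 0.00404), and was not called without total ETP 2 (0.067). Fgfr1 was the only FGF receptor gene tested and did not pass (-0.08), since Fgfr2, Fgfr3 and Fgfr4 were too low to test.

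Genes of homing and adhesion changed in both directions. Ccr9, the receptor for the thymic chemokine CCL25, had 0.349, 0.175 and 0.063 FPKM in Bcl11b- DN2a, against 6.63 and 3.78 FPKM in total ETP (-2.33 ± 0.23, adjusted p = 0.000273). Of 12 chemokine receptor and egress genes tested (33.3% called), Ccr2 and Ccr7 also fell and Cxcr4 rose (0.67 ± 0.13, adjusted p = 0.0107). These 3 were not called without total ETP 1 or 2. Ccr7 was also not called without Bcl11b- DN2a 3, nor Ccr2 and Cxcr4 without Bcl11b- DN2a 1 (up to 0.267 over these fits). Of 20 integrin and adhesion genes 4 rose and 3 fell (35% called). Cdh1, which encodes E-cadherin, had 4.76, 2.87 and 0.645 FPKM, against 0.955 and 0.872 FPKM in total ETP (1.37 ± 0.20, adjusted p = 0.00228). Its raw SMART-Seq value lay below total ETP. The first-series ETP libraries had 3.69 and 3.31 FPKM of Cdh1, between the 2 NEBNext libraries of Bcl11b- DN2a.

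Surface proteins used to stage thymocytes gave 5 rises and 8 falls in 19 tested (68.4% called, median -0.58). Ly6c2, which encodes the myeloid marker Ly6C, had 2.98, 1.199 and 2.16 FPKM in Bcl11b- DN2a, against 19.9 and 22.97 FPKM in total ETP (-2.94 ± 0.24, adjusted p = 7.2e-05). Cd33, a sialic acid-binding lectin of myeloid cells, fell by 1.47 ± 0.19, and Ly6d and Cd34 changed as given above. Thy1, the classical T-cell surface protein, had 33.7, 13.6 and 2.93 FPKM, against 7.18 and 5.80 FPKM in total ETP (1.83 ± 0.38, adjusted p = 0.0125), and was not called without Bcl11b- DN2a 1 or either total ETP library (up to 0.15). Thy1 had 49.3 FPKM (Flt3+) and 33.9 FPKM (Flt3-) in the first-series ETP libraries, above all 5 libraries. Its raw SMART-Seq value lay below total ETP.

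Of 23 genes of T-cell receptor signalling 8 rose and none fell (34.8% called, median 0.48). Of these, Lck, Lat and Nck2 held in every fit that left out a library. The kinase gene Lck had 162.8, 130.1 and 222.4 FPKM in Bcl11b- DN2a, against 73.6 and 65.4 FPKM in total ETP (1.05 ± 0.14, adjusted p = 0.00128). The adaptor gene Lat had 77.3, 57.9 and 90.8 FPKM, against 27.3 and 22.2 FPKM in total ETP (1.51 ± 0.22, adjusted p = 0.0017), and the first-series ETP libraries had 62.5 and 64.7 FPKM. Of 17 genes of the receptor complex and recombination, Cd247, the zeta chain, rose (1.15 ± 0.22, adjusted p = 0.0081, but 0.114 without total ETP 2), and Dntt and Cd4 fell (Cd4 -0.88, adjusted p = 0.0407, up to 0.264 without any of the 5 libraries). Dntt, which encodes terminal transferase, had 125.9, 174.2 and 109.3 FPKM, against 494 and 429 FPKM in total ETP (-1.69 ± 0.20, adjusted p = 0.000624). Called genes made up 17.6% of the list of the receptor complex and recombination, against 15.6% of all genes tested. The CD3 chain genes did not pass: Cd3g had 19.8, 0.801 and 4.77 FPKM in Bcl11b- DN2a, against 0.831 and 1.16 FPKM in total ETP, and the high value is that of Bcl11b- DN2a 1. Cd3g had 52.5 and 39.9 FPKM in the first-series ETP libraries, above all 5. Fcer1g, the ITAM chain of Fc receptors that resembles the zeta chain, had 28.96, 27.4 and 93.7 FPKM, against 10.6 and 12.1 FPKM in total ETP (1.26 ± 0.17, adjusted p = 0.00128), while its relative Tyrobp did not pass (0.53).

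Transcripts of granulocyte and monocyte progenitors fell together. Of 16 tested, 14 fell and none rose (87.5% called, median -1.59), and 8 of the falls held in every fit that left out a library. Elane, neutrophil elastase, had 0.074, 0.337 and 0 FPKM in Bcl11b- DN2a, against 45.3 and 38.8 FPKM in total ETP (-5.48 ± 0.37, adjusted p = 1.9e-05). Prtn3, proteinase 3, which lies beside Elane on chromosome 10, had 0.515, 1.60 and 1.81 FPKM, against 40.5 and 38.5 FPKM in total ETP (-4.16 ± 0.31, adjusted p = 3.92e-05). S100a8, a calcium-binding alarmin, had 0.349, 0 and 0 FPKM, against 10.1 and 19.8 FPKM in total ETP (-3.70 ± 0.35, adjusted p = 0.000202). These 3 genes stood at or below 1.81 FPKM in all Bcl11b- DN2a libraries. The first-series ETP libraries held Elane at 1.52 FPKM (Flt3+) and 144.2 FPKM (Flt3-), Prtn3 at 11.4 and 165.1 FPKM and S100a8 at 1.19 and 20.2 FPKM. Myeloperoxidase, Mpo, was the exception in level, with 127.2, 138.1 and 153.99 FPKM in Bcl11b- DN2a, against 280 and 251 FPKM in total ETP (-1.14 ± 0.23, adjusted p = 0.0114, up to 0.0949 without either total ETP library). Ctsg, cathepsin G, fell by 2.12 ± 0.35 (adjusted p = 0.00431, but 0.0549 without total ETP 2). The summed level of all 20 listed genes was 178.8, 181.8 and 254 FPKM in Bcl11b- DN2a, against 538 and 525 FPKM in total ETP. Whether total ETP held separate myeloid cells was not tested.

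The promoters of 2 of these genes are shown because members of the list moved together and their promoters often hold GAGGAA. This is a core of the motif of PU.1, the Ets factor of myeloid and early T cells. The promoter of Ctss is shown too, but Ctss is not in this list and not in the counts below. Capitals mark GAGGAA or, on the other strand, TTCCTC. The windows, 250 bases before to 50 bases after the listed start, are chr10:79886062-79886361 (Elane), chr10:79879417-79879716 (Prtn3) and chr3:95526536-95526835 (Ctss), all on the plus strand of GRCm38.p6 and from the RefSeq promoter table.
Elane: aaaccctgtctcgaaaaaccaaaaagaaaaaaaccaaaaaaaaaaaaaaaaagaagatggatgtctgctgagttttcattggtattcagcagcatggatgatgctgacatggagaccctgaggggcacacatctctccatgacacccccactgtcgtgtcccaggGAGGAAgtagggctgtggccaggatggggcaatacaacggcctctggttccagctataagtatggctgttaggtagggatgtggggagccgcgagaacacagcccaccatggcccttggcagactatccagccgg
Prtn3: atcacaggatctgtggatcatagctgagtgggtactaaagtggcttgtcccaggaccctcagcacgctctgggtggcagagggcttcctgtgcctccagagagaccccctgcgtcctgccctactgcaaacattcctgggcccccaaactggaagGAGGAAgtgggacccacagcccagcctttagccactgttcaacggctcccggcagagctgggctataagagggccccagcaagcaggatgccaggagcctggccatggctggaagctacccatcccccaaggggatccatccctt
Ctss: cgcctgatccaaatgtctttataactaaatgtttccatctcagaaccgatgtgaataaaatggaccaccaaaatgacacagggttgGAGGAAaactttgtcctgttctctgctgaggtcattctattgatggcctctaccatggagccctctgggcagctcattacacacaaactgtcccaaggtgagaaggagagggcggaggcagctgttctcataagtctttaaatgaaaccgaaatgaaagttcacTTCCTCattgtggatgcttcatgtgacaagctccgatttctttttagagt
Of the 14 genes that fell, 13 had a promoter in the table and 10 of these (76.9%) held the motif on either strand, against 28.3% of all promoters. Of the 7 promoters found for the 8 T-cell receptor signalling genes that rose, 4 (57.1%) held it too. The motifs were chosen with the results known, and Spi1 itself did not pass in this comparison.

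Other lists of antigen-presenting and innate cells moved less uniformly. Of 11 genes of MHC class II presentation 3 fell and none rose (27.3% called). The falls were Ctss, H2-Ob and H2-Oa (adjusted p of H2-Oa 0.00344, but 0.0574 without total ETP 2). H2-Ob, a chain of the modulator of peptide loading, had 10.6, 11.6 and 9.59 FPKM in Bcl11b- DN2a, against 38.1 and 40.5 FPKM in total ETP (-1.76 ± 0.15, adjusted p = 7.2e-05), while Cd74 did not pass (-0.16). Of 7 mast cell and basophil genes 4 fell and 1 rose (71.4% called). Hdc, histidine decarboxylase (-1.49 ± 0.21, adjusted p = 0.00181), and Gata2 fell, while Cpa3, carboxypeptidase A3, had 98.7, 126.8 and 482 FPKM in Bcl11b- DN2a, against 50.1 and 64.4 FPKM in total ETP (0.996 ± 0.20, adjusted p = 0.0105, but 0.083 without total ETP 1). Of 11 genes of natural killer and innate lymphoid cells 3 rose and 3 fell (54.5% called). Klrd1, the CD94 chain, had 0.288, 0.912 and 0.5 FPKM, against 11.2 and 7.82 FPKM in total ETP (-2.86 ± 0.31, adjusted p = 0.000401). Zbtb16, which encodes PLZF, went up at a low level, with 2.67, 2.44 and 0.784 FPKM in Bcl11b- DN2a, against 0.446 and 0.417 FPKM in total ETP (1.19 ± 0.20, adjusted p = 0.00514, but 0.0688 without total ETP 2). Maf, a bZIP factor of innate-like T cells, had 0.922, 0.592 and 0.304 FPKM, against 4.71 and 5.62 FPKM in total ETP (-1.83 ± 0.20, adjusted p = 0.000401).

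Globin transcripts were higher in Bcl11b- DN2a. The 4 adult β-globin entries Hbb-b1, Hbb-bs, Hbb-b2 and Hbb-bt rose by 3.48 to 3.50, but they are near-identical and share reads, so they amount to a single uncertain measurement. Hbb-b1 had 295, 138.1 and 268 FPKM in Bcl11b- DN2a, against 21.7 and 15.96 FPKM in total ETP, and the first-series ETP libraries had 20.8 FPKM (Flt3+) and 102.8 FPKM (Flt3-). The α-globin gene Hba-a1 had 3.25, 0 and 0.163 FPKM in Bcl11b- DN2a and was listed at 0 in both total ETP libraries, so β-globin was high in Bcl11b- DN2a 2 with no Hba-a1 read there. Of 7 erythroid and megakaryocyte genes (42.9% called), Itga2b and Nfe2 (0.79, adjusted p = 0.00709, but 0.112 without total ETP 2) rose. Car2, carbonic anhydrase 2, fell (-1.84 ± 0.20, adjusted p = 0.000401). Another 10 listed erythroid or platelet genes, among them Gata1, Klf1 and Alas2, were too low to test.

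Markers of other cells were mostly low. Macrophage markers such as C1qa and Adgre1 were at or below 0.277 FPKM in the 5 libraries, and the 10 listed macrophage genes summed to 3.29 to 5.39 FPKM in Bcl11b- DN2a and 4.26 to 4.41 FPKM in total ETP. Of 10 tested genes shared with endothelium 4 fell (40% called), among them Adgrl4, Cd34 and Egfl7 (adjusted p of Egfl7 0.00996, but 0.079 without total ETP 1). The defining endothelial gene Cdh5 was at or below 0.017 FPKM. Of 7 B-lineage genes 2 rose (28.6% called), Il7r and the surrogate light chain gene Vpreb2 (1.43, adjusted p = 0.0317). Vpreb2 was not called without Bcl11b- DN2a 1 or 3 or either total ETP library (up to 0.253). No stromal gene was called, but the median difference of the 6 tested was 1.07. The 14 listed stromal genes summed to 57.4, 35.1 and 11.9 FPKM in Bcl11b- DN2a and 36.7 and 36.2 FPKM in total ETP. They summed to 98.9 FPKM (Flt3+) and 81.9 FPKM (Flt3-) in the first-series ETP libraries, above all 5 libraries. Whether stromal RNA was present was not tested.

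The cyclin D genes went in different directions. Ccnd1, cyclin D1, had 2.45, 3.27 and 1.28 FPKM in Bcl11b- DN2a, against 12.4 and 12.3 FPKM in total ETP (-1.84 ± 0.20, adjusted p = 0.000404). Ccnd3, cyclin D3, on which thymocyte expansion depends, had 75.8, 69.03 and 61.5 FPKM, against 31.4 and 25.04 FPKM in total ETP (1.33 ± 0.14, adjusted p = 0.000382), while Ccnd2 did not pass (-0.47, 95% interval -1.16 to 0.23). Cdkn1a, which encodes the Cdk inhibitor p21, rose more than either, with 15.2, 8.52 and 12.8 FPKM in Bcl11b- DN2a, against 0.883 and 0.619 FPKM in total ETP (3.02 ± 0.37, adjusted p = 0.000702). In all 5 of 18 genes of this class rose and 2 fell (38.9% called). E2f1 was among the rises (0.995 ± 0.17, adjusted p = 0.00551, but 0.0949 without total ETP 2). Of 27 S-phase genes 8 rose and none fell (29.6% called, median 0.25), with Rfc2, Chaf1b, Mcm2 and Cdt1 at 0.64 to 0.76. No S-phase call held without Bcl11b- DN2a 1, and these 4 were also not called without total ETP 2 (up to 0.296). Of 28 genes of G2 and mitosis, Cdc20 rose and Kif23 fell (7.14% called, against 15.6% of all genes tested, median -0.10). Neither held without Bcl11b- DN2a 1 or 3 or either total ETP library.

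The Hmga family also divided. Hmga2, the fetal and stem cell architectural factor, had 0.316, 0.709 and 0.384 FPKM in Bcl11b- DN2a, against 13.2 and 11.97 FPKM in total ETP (-3.17 ± 0.21, adjusted p = 1.9e-05). Hmga1 had 262, 207.9 and 194.8 FPKM, against 129.2 and 110.1 FPKM in total ETP (0.97 ± 0.18, adjusted p = 0.00883, up to 0.138 without Bcl11b- DN2a 1 or total ETP 2). Of the other Polycomb, DNA methylation and chromatin genes, 23 tested in all, Tet2 fell (-0.74, adjusted p = 0.0302, up to 0.301 without Bcl11b- DN2a 1 or 3 or either total ETP library) and none rose.

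In the metabolic lists every call was a rise, against 9.78% of all genes tested that were called higher. Of 18 genes of cholesterol synthesis 6 rose and none fell (33.3% called, median 0.37). Of 25 genes of one-carbon, serine and nucleotide synthesis 6 rose (24%, median 0.28), and of 21 of glycolysis 4 rose (19%, median 0.32). The glycolysis list summed to 1819, 1467 and 2122 FPKM in Bcl11b- DN2a and 1263 and 1140 FPKM in total ETP. In the first-series ETP libraries it summed to 1852 FPKM (Flt3+) and 1627 FPKM (Flt3-), within the range of Bcl11b- DN2a. The one-carbon list summed there to 1198 FPKM (Flt3+) and 895 FPKM (Flt3-), against 1273, 1206 and 1470 FPKM in Bcl11b- DN2a. The cholesterol list summed there to 292 and 246 FPKM, below all 3 Bcl11b- DN2a libraries. Phgdh, the entry enzyme of serine synthesis, had 190.5, 159.1 and 268 FPKM in Bcl11b- DN2a, against 113.8 and 93.5 FPKM in total ETP (0.73 ± 0.16, adjusted p = 0.0157), and Ldha, lactate dehydrogenase A, rose by 0.62 ± 0.14 (adjusted p = 0.0195). Neither was called without Bcl11b- DN2a 1 or total ETP 2, nor Ldha without total ETP 1 (up to 0.22 for Phgdh and 0.246 for Ldha). Without Bcl11b- DN2a 1 the calls of 2 of these 16 rises were kept, among them Aldh1b1 but none of the glycolysis rises. Of 24 genes of oxidative phosphorylation and 24 of ribosome biogenesis 3 each rose, shares of 12.5% each, against 9.78% of all genes tested that were called higher. Of 30 cytosolic ribosomal protein genes 2 rose, Rpl8 and Rpl27, which were not called without Bcl11b- DN2a 1 or 3 or either total ETP library (up to 0.3 and 0.362).

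**Figure D4:**
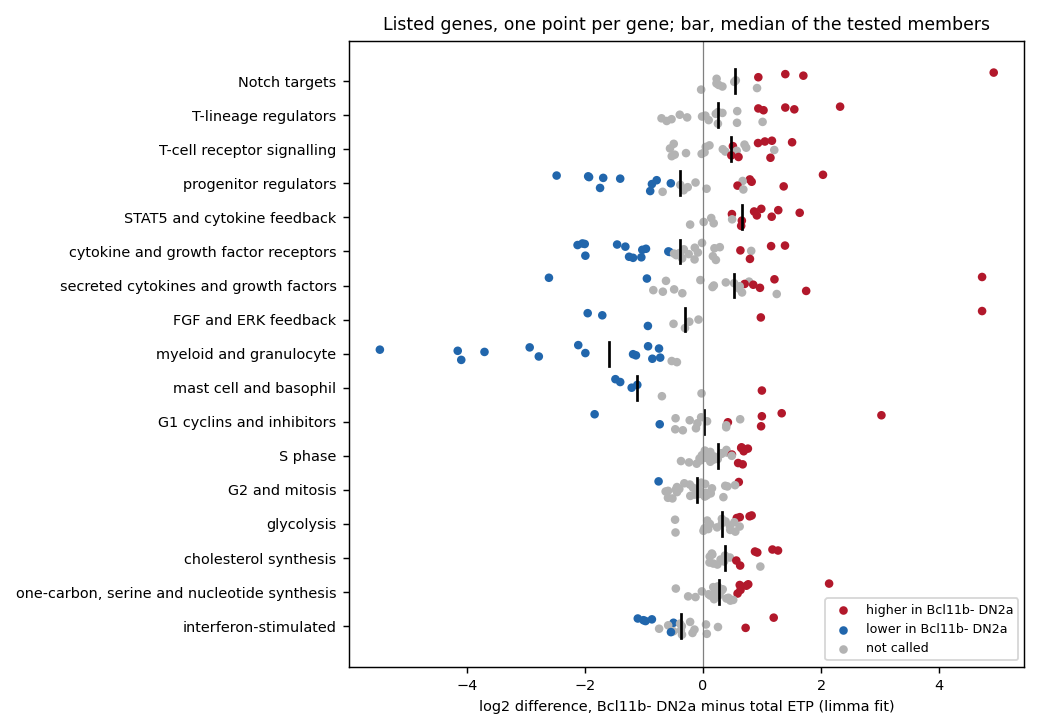
Log2 difference of each tested gene (points) in 17 of the lists, Bcl11b- DN2a minus total ETP, with the median as a black bar; red points were called higher, blue points lower and grey points not called. The myeloid and cytokine receptor lists lie to the left with medians of -1.59 and -0.40, the STAT5 and Notch target lists to the right with 0.65 and 0.54.

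Single cells of the whole Lin- 7AAD- CD44+ Kit+ gate of wild-type C57BL/6 mice gave a second look with other mice and another method. In the 2 10x libraries (4878 and 8434 cells after filtering, median depths by class 5738 to 9058.5 UMIs), cells with at least 2 Il2ra UMIs and no Bcl11b UMI (932 and 1223 cells) were set against cells with neither (2078 and 3919 cells), as summed UMI counts scaled to a common library total (CPM). A cell with no Il2ra UMI may still carry CD25, doublets were not removed, 57 barcodes occur in both libraries, and the comparison carries no test. Of the 1184 rises, 1087 had at least 50 UMIs, and 879 of these (80.9%) were higher in both libraries, against 46.2% of genes not called. Of the 711 falls, 619 had as many, and 533 (86.1%) were lower in both, against 27.2% of genes not called. Where the first-series ETP libraries did not share the side of Bcl11b- DN2a, these shares were 95.8% of the rises and 95.9% of the falls, and where they did share it, 78.2% of 920 rises and 80.8% of 400 falls.

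Of the called genes chosen by the naming rule given under processing and with enough UMIs, 93.2% moved the same way in both 10x libraries. The selecting genes Il2ra and Bcl11b were left out, and genes named above outside the rule are not counted. Fgf3 had 81.6 and 98.7 CPM in the Il2ra+ cells, against 8.71 and 16.6 in the cells without Il2ra UMI. Elane had 0.227 and 0.111 CPM (2 and 1 UMIs), against 46.3 and 34.9. Cdkn1a had 30.4 and 38.7, against 4.33 and 7.27, and Ccnd1 7.93 and 5.67, against 32.3 and 21.6. Hbb-bt had 1093 and 715 CPM in the Il2ra+ cells, against 292 and 183.3, higher in both libraries of wild-type mice too, and free RNA in the droplets was not separated. Lyl1, which rose in the bulk fit, stood at 154.1 and 168.2 CPM, against 149.9 and 170.7, with no common direction. Spred1, which fell in the bulk fit, was not lower in both 10x libraries. Both lie outside the naming rule. The 9 genes of the rule that did not share the bulk direction in both were Rfng, Cma1, Cdc20, Rpl8, Rpl27, Ndufv1, Junb, Bcl2l1 and Hist1h2ac. All but Cma1 of them were rises not called in the bulk fit without Bcl11b- DN2a 1.

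**Figure D5:**
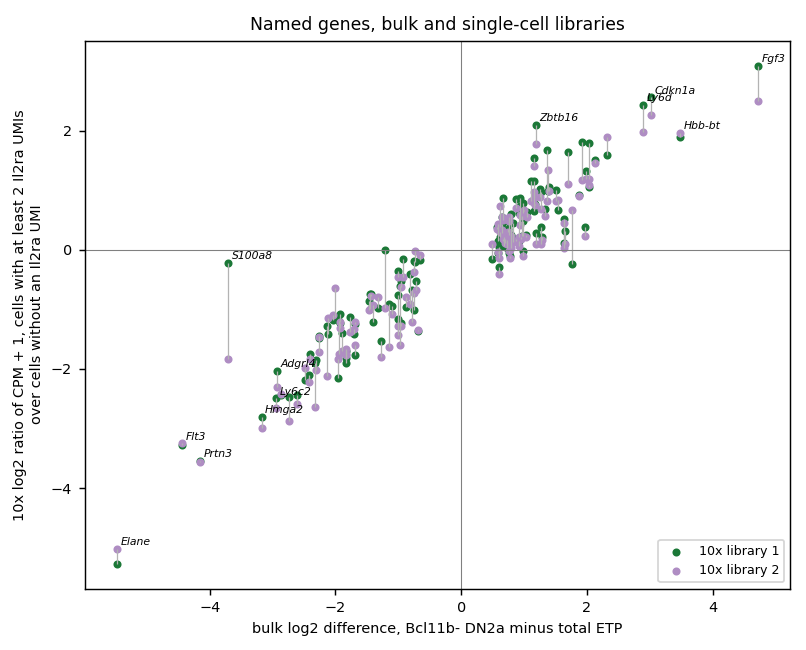
Log2 difference of the named called genes in the bulk libraries (x axis, Bcl11b- DN2a minus total ETP) against the log2 ratio of CPM plus 1 in the 10x libraries (y axis, cells with at least 2 Il2ra UMIs over cells with none); green points are 10x library 1, violet points 10x library 2, joined by a line per gene, and Il2ra and Bcl11b are left out. Elane, Prtn3 and Flt3 lie at the lower left and Fgf3 at the upper right, while many rises under 1 lie near 0 in the single cells.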

How the data were processed

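The values of the 12 bulk libraries were deposited by the authors as FPKM per RefSeq gene on mm10, made with HOMER from exon reads and condensed by gene, per the file headers; the submitters' processing notes name STAR 2.4.0, RSEM 1.2.25 and Cell Ranger 2.0. The 10x data were deposited as UMI counts per gene and barcode. Differences came from limma 3.58.1 with an intensity trend on log2(FPKM + 1), with population and kit as terms, for genes over 1 FPKM in at least 2 libraries (12112 of 24506). This scale understates the change of low genes. On simulated data more calls were false than the nominal rate. edgeR 4.0.16 was an alternative, run on reads recovered from the FPKM values within 0.1 read. 10x cells had at least 1000 genes and under 10% mitochondrial UMIs. Named genes were the gate genes, the 15 largest rises and falls with a mean log2 level of at least 3 and no overlap, and up to 4 called genes of each of 43 lists by adjusted p; other called list members in the text were chosen after their values were seen. The populations and lists were chosen with earlier results of these data known. Another table of single-cell FPKM was not used here. RefSeq promoters are of GRCm38.p6. Some named genes are not reported here.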

Additional observations from a re-analysis of the deposited data

How the results depend on the processing

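The share of genes called (15.6%, 62.5% of them higher) depended on the fit. It was 4.04% without a filter on low values (799 genes), 0.454% without the kit term (55) and 2.73% with the NEBNext libraries alone (331). It was 7.76% with the library series as a block (940, of which 896 among the 1895) and 0 in the series of total ETP alone. In that last fit the spread came from the total ETP libraries only. Leaving out a library gave 1.68% to 23.9%, with 39.4% to 61.6% of calls higher. The share higher was 51.3% with quantile normalization, 51.9% without a filter, 67.2% at over 5 FPKM, 18.2% without the kit term, 42.9% with NEBNext alone, 56.1% without the Bcl11b+ DN2a libraries, 58.4% with the series block, 52.2% with edgeR (2067 calls) and 59.1% without the first series (1595 calls), a setting added after seeing the data. The cause was not tested. With the replicate number as a block 31.8% of genes were called (3857), 52.3% higher; the samples share only a number, with a correlation of same-numbered deviations of 0.298 over 2 pairs. Among named genes the sign turned without the kit term in Rrp12 (-0.15), Hk1 (-0.12), Cad (-0.28) and Bak1 (-0.43). Of the called named genes 43.4% kept the call in all 5 fits that left out a library. The number of libraries limits precision, and for Bcl11b- DN2a 3 the kit and the series cannot be told apart.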

Other observations

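Some gene groups stood outside the comparison's main themes. Of 18 replication-dependent histone genes 13 rose and none fell (72.2% called, median 1.04). Hist1h2ao had 147.3, 87.2 and 2413 FPKM in Bcl11b- DN2a, against 37.4 and 25.6 FPKM in total ETP (1.98 ± 0.44, adjusted p = 0.0159, up to 0.188 without Bcl11b- DN2a 1 or either total ETP library). The high value is that of the SMART-Seq library, and the first-series ETP libraries had 207.03 FPKM (Flt3+) and 201.9 FPKM (Flt3-), above both NEBNext libraries of Bcl11b- DN2a. Histone genes have near-identical copies that share reads, their transcripts mostly lack a polyA tail, and the RNA selection differs between the kits. The list summed to 4000 FPKM in the SMART-Seq library, against 313 and 263 FPKM in Bcl11b- DN2a 1 and 2. The highest level is thus in the library made from polyA RNA. The reason was not tested, and the histone levels are uncertain.

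Of 21 interferon-stimulated genes 6 fell and 2 rose (38.1% called, median -0.38), and no call of this list held without Bcl11b- DN2a 1. Oasl2, an antiviral oligoadenylate synthetase-like gene, had 5.06, 6.07 and 5.45 FPKM in Bcl11b- DN2a, against 12.3 and 12.5 FPKM in total ETP (-1.11 ± 0.22, adjusted p = 0.0115, up to 0.129 without Bcl11b- DN2a 1 or either total ETP library). Of 23 immediate early and heat shock genes 3 rose and 1 fell (17.4% called, against 15.6% of all genes tested). Jund, an AP-1 subunit, had 14.7, 14.6 and 29.8 FPKM in Bcl11b- DN2a, against 6.95 and 4.89 FPKM in total ETP (1.29 ± 0.21, adjusted p = 0.00342, but 0.0697 without total ETP 2). Of 26 cathepsin, annexin, S100 and serpin genes 2 rose and 6 fell (30.8% called). Anxa3, an annexin of myeloid cells, had 0.384, 0.195 and 0.186 FPKM in Bcl11b- DN2a, against 4.38 and 4.76 FPKM in total ETP (-2.26 ± 0.29, adjusted p = 0.000886).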
